A study of Mus musculus with 88 samples.

Results

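Male mouse embryonic stem cells (mESCs) that carried a plasmid for Obox3 (ES_Obox3) were compared directly with mESCs that carried a plasmid for Obox6 (ES_Obox6), across all genes of the deposited mESC table. The comparison used 4 libraries of total RNA, 2 for each gene, out of 88 samples in the series and 19 libraries in that table. ES_Obox3 consisted of replicate 1 and a library whose column number no sample label carries, called here the unnumbered library, and ES_Obox6 consisted of replicates 1 and 2. Replicates 1 and 2 of mESCs with an empty plasmid (ES_Empty) served as the background. All groups shared a C57BL/6 and 129 hybrid background with a wild-type genotype and were grown on gelatin with serum, LIF, 0.5 uM PD0325901, which inhibits MEK, and 3 uM CHIR99021, which inhibits GSK3. Plasmids were delivered by lipofection. The share of cells that took up a plasmid and the time between transfection and RNA collection are not stated for these libraries, so each level is an average over all cells of a dish. In such bulk samples more cells of a type and more RNA per cell cannot be told apart.

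Obox genes form a mouse family of paired-like homeobox genes expressed in oocytes and early embryos. Their proteins bind DNA through a homeodomain, and members of the family act when the embryonic genome is switched on. Homeodomains of this class, like those of Crx, Otx2 and Gsc, are known to bind sites with the core TAATCC. Placing both genes in the same cell type and medium asks which transcripts depend on the family member that was supplied.

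Of 55364 genes in the table, 20355 reached 1 TPM (a transcript level scaled for gene length and to a constant library total) in at least 2 of the 10 libraries of the 5 replicated mESC groups and were tested with limma on log2(TPM + 1). Calls required both an adjusted p below 0.05 and a log2 difference, ES_Obox3 minus ES_Obox6, of 1 or more in size. As deposited, 513 genes (2.52%) were called higher in ES_Obox3 and 1346 (6.61%) lower, with a median log2 difference of -0.32 over all genes. The small noncoding RNA Gm24187 alone took 39.8 and 53.7% of all TPM in the ES_Obox3 libraries, 26.3 and 29.6% in the ES_Obox6 libraries and 20.9 and 25.9% in the ES_Empty libraries. After each library was scaled by its median ratio, 985 genes (4.84%) were called higher and 542 (2.66%) lower, so that higher genes made up 64.5% of the calls in place of 27.6%. Both scalings called 511 genes higher (2.51%) and 535 lower (2.63%). Of these, 184 higher and 280 lower genes were also called with each of the 10 fitted libraries left out in turn. A further 6 higher and 38 lower genes lost no call but were untested in 2 of the 10 fits, where too few libraries reached 1 TPM. Of the genes described below, Sox7, Sox9, Cacna1h and Obox3-ps5 are among these, each called in the 8 fits that tested it. A gene otherwise described as higher or lower belongs to the 184 or 280 unless its losses are given, and every list count is given as deposited, then after scaling. With a pseudocount of 5, which by construction shrinks the differences of low genes, 185 of the 511 higher and 221 of the 535 lower calls were kept. Cdk6, Cdx1, Hes6, Id4, Klf6, Klf13, Meg3, Pramel5, Rian, Rtl1, Sp110, Tfap2c and Usp17lb lost their calls. Genes named after their values were seen, such as Ubtfl1, Spz1 and Cubn, were not checked with it. They were also not checked in the scaled fits that left out a library. After scaling, calls were also lost without ES_Obox6 replicate 2 for Hes6 and Rtl1 (adjusted p = 0.055 and 0.0562) and, on the minimum fold, for Klf13 and Pfkm (-0.92 and -0.96). Without ES_Obox3 replicate 1 they were lost for Hes6 (adjusted p = 0.052) and, on the minimum fold, for Klf13 and Hmox1 (-0.94 and -0.98), without the unnumbered ES_Obox3 library for Rtl1 (adjusted p = 0.059) and without ES_Obox6 replicate 1 for Hmox1 (-0.86). The unnumbered ES_Obox3 library had 13598 genes at or above 1 TPM, against 16134 in ES_Obox3 replicate 1 and 17067 and 16490 in the ES_Obox6 libraries. Pairs of libraries correlated at 0.960 within ES_Obox3, at 0.956 within ES_Obox6 and at 0.927 to 0.934 between the groups, across genes on the log2(TPM + 1) scale.

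**Figure D1:**
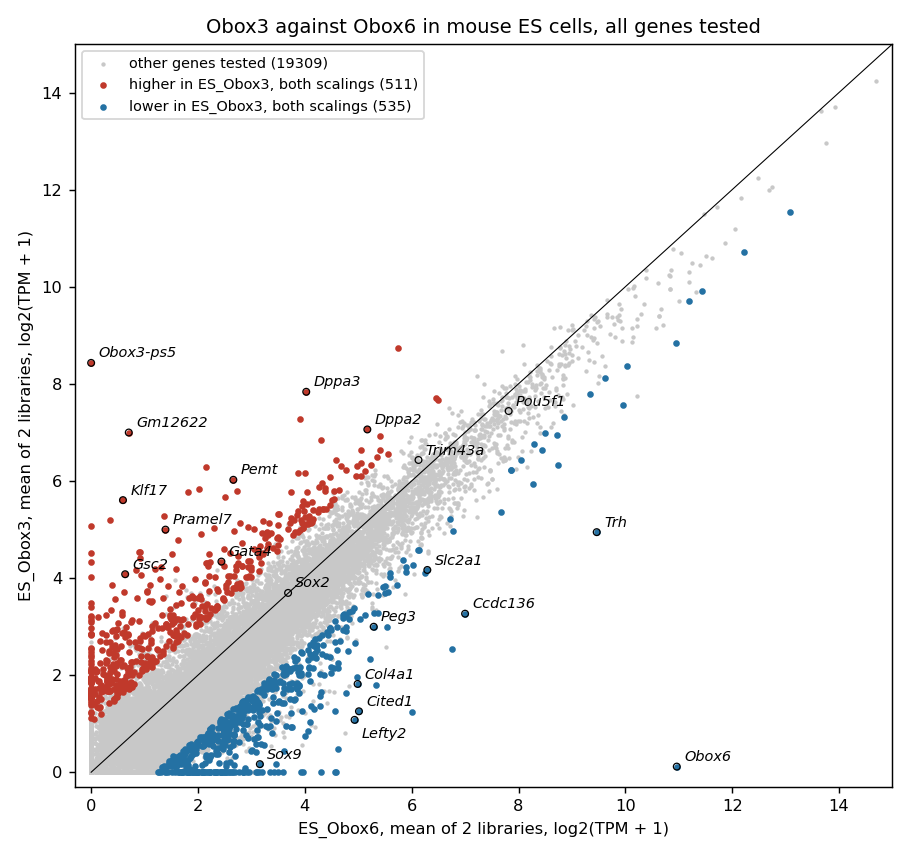
Mean log2(TPM + 1) of the 2 ES_Obox3 libraries (vertical) against that of the 2 ES_Obox6 libraries (horizontal) for the genes tested, 4 of which lie beyond the axes. Red and blue points are the 511 genes called higher and the 535 called lower under both scalings, and the line marks equal levels. Most grey points of high level lie just below the line, as the median of -0.32 gives.

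Promoters are shown for the 4 genes that held a TAATCC core among the 14 most increased protein-coding genes, of which 12 had a RefSeq promoter. Each is the stretch from 250 bases before to 50 after the annotated start, 5′ to 3′ on the gene's strand, from RefSeq on GRCm38.p6, with every TAATCC or its complement GGATTA in capitals. Klf17 lies at chr4:117765617-117765916 on the minus strand, Gsc2 at chr16:17914978-17915277 on the minus strand, Pemt at chr11:60040139-60040438 on the minus strand and Alppl2 at chr1:87089879-87090178 on the minus strand.
Klf17: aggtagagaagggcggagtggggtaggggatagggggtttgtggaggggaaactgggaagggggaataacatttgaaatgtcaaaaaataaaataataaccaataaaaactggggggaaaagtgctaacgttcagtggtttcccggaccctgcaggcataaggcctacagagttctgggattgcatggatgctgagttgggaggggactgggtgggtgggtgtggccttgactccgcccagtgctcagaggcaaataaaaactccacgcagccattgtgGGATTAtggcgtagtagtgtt
Gsc2: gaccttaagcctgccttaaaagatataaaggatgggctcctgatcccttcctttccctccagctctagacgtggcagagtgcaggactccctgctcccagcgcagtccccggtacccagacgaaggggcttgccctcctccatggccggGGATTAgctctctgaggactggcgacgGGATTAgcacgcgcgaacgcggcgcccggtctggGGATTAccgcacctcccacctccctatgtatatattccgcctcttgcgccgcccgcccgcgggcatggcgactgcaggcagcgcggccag
Pemt: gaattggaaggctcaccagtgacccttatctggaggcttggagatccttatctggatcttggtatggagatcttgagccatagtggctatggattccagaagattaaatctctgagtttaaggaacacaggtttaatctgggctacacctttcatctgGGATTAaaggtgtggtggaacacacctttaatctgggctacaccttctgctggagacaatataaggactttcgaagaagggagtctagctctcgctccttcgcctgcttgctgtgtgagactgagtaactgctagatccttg
Alppl2: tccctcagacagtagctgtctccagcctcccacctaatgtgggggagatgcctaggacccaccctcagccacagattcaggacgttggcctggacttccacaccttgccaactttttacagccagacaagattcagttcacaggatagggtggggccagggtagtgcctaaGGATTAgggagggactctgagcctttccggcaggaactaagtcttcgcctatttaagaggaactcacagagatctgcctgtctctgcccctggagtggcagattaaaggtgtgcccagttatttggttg
The Gsc2 promoter held 3 cores, at 101, 74 and 40 bases before the start, and the others held 1 each. That of Klf17 lay 29 bases after the start, and those of Pemt and Alppl2 lay 92 and 79 bases before it. The other annotated start of Pemt held none. Of the 14 most decreased protein-coding genes, 1 of which is the supplied Obox6 itself, 6 had a RefSeq promoter in the table and 0 held a core. Not every called gene had a RefSeq promoter, and several starts of 1 gene, which can overlap, were counted separately. A core on either strand was found in 12.7% of 316 promoters, from 247 genes called higher under both scalings. Among genes called lower, the core was found in 4.64% of 366 promoters, from 260 genes. Its share was 6.24% of the 12824 promoters of all genes tested and 7.06% of the 32851 promoters in the table. A different homeodomain core, TAATTA, which is its own complement, was found in 2.85% of the promoters of higher genes, 2.46% of those of lower genes and 2.71% of those of all genes tested. A match is a run of letters in the reference and says nothing of binding, which was not used here.

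The supplied genes set the groups apart as labelled. Obox6 had 0.174 and 0 TPM in ES_Obox3, against 2031 and 1959 TPM in ES_Obox6, and was listed at 0 in both ES_Empty libraries. In ES_Obox3, levels were listed for Obox3 and for near-identical copies of it. Obox3 together with its 8 pseudogene copies summed to 521.7 and 320.3 TPM in ES_Obox3, against 0.1 and 0.0 TPM in ES_Obox6. The copy Obox3-ps5 held most of that sum, with 450.7 and 262.8 TPM in ES_Obox3 but a listed value of 0 in both ES_Obox6 libraries. The entry for Obox3 itself had 1.75 and 1.59 TPM in ES_Obox3, against 0.0775 and 0 TPM in ES_Obox6. Of the 10 fits that left out a library, its call was lost in 7 and kept in 1, and 2 did not test it. How reads were shared among the copies is not stated in the sources, so single entries should not be read as the supplied genes. The sums can hold reads of genomic copies as well as of a plasmid, and the source of the reads was not tested. Obox3-ps7 had 3.99 and 3.85 TPM in the libraries with an Obox5 plasmid and 29.6 TPM in the Obox7 library. Because shared reads may have been dropped or split, the amounts of supplied transcript were not compared between the groups, and the part of the dose in the differences below was not tested.

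Klf17, Dppa3, Pramel7 and Gsc2 were among the 14 protein-coding genes with the largest increases in ES_Obox3 over ES_Obox6. Klf17, a Krüppel-like factor of oocytes and early embryos, had 57.7 and 39.4 TPM in ES_Obox3, 0.103 and 1.07 TPM in ES_Obox6 and 0.224 and 0 TPM in ES_Empty. Both ES_Obox3 libraries were far above all 4 others, and the log2 difference was 5.01 ± 0.35 (SE, limma adjusted p = 0.000261). Dppa3 encodes Stella, an oocyte protein that protects maternal DNA methylation in the zygote. It had 260.3 and 198.8 TPM in ES_Obox3, 18.6 and 12.6 TPM in ES_Obox6 and 3.31 and 2.07 TPM in ES_Empty. The groups formed 3 separate levels, with a log2 difference of 3.81 ± 0.33 (adjusted p = 0.000498). Over all genes, the same fit called 951 higher (4.67%) and 2770 lower (13.6%) in ES_Obox3 than in ES_Empty, and 486 higher (2.39%) and 406 lower (1.99%) in ES_Obox6 than in ES_Empty, 2 comparisons that share the ES_Empty libraries. Differences and calls against ES_Empty are given as deposited only. The factors that divide each library in scaling were 1.506 and 1.358 in ES_Empty, 1.123 and 0.746 in ES_Obox3 and 1.342 and 1.202 in ES_Obox6. As deposited, ES_Obox3 levels therefore stand lower beside ES_Empty than they would after scaling. Set against ES_Empty, Dppa3 differed by 5.97 in ES_Obox3 and by 2.16 in ES_Obox6, both called. Pramel7, a PRAME-like gene of the preimplantation embryo, had 38.6 and 24.7 TPM in ES_Obox3, 1.16 and 2.19 TPM in ES_Obox6 and 0.126 and 0.0961 TPM in ES_Empty. Its groups did not overlap, and it was higher in ES_Obox3 by 3.61 ± 0.29 (adjusted p = 0.00042).

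Gsc2, a goosecoid-like homeobox gene, had 15.6 and 16.2 TPM in ES_Obox3, against 0.211 and 0.996 TPM in ES_Obox6, and was listed at 0 in ES_Empty. Its ES_Obox3 libraries stood well above both ES_Obox6 libraries (log2 difference 3.44 ± 0.25, adjusted p = 0.000265). Pemt, which methylates phosphatidylethanolamine to phosphatidylcholine, had 72.7 and 56.4 TPM in ES_Obox3, 4.47 and 6.33 TPM in ES_Obox6 and 0.894 and 0.39 TPM in ES_Empty. It rose in both supplied groups over ES_Empty, by 5.33 in ES_Obox3 and 1.96 in ES_Obox6, and was higher in ES_Obox3 than in ES_Obox6 by 3.36 ± 0.24 (adjusted p = 0.000261). Naalad2, a peptidase gene, behaved alike, with 73.5 and 42.5 TPM in ES_Obox3, 4.35 and 2.09 TPM in ES_Obox6 and 0.339 and 0.0432 TPM in ES_Empty. Others were not called in ES_Obox6 against ES_Empty. The Fc receptor gene Fcgr3 had 20.8 and 13.97 TPM in ES_Obox3, 0.855 and 0.74 TPM in ES_Obox6 and 0.438 and 0.886 TPM in ES_Empty. ES_Obox6 libraries lay within the range of ES_Empty, and the log2 difference of ES_Obox3 over ES_Obox6 was 3.33 ± 0.25 (adjusted p = 0.000318). Abhd6, a monoacylglycerol lipase gene, had 32.4 and 21.7 TPM in ES_Obox3, 2.82 and 1.48 TPM in ES_Obox6 and 2.95 and 2.69 TPM in ES_Empty, a log2 difference of 3.16 ± 0.30 (adjusted p = 0.000718). The remaining genes among the 14 largest protein-coding increases were Gm11544 (3.92), the apolipoprotein L gene Apol7b (3.10), the Speedy family gene Spdye4b (3.08), 4930432K21Rik (2.99), the alkaline phosphatase gene Alppl2 (2.98) and the transporter gene Slc45a3 (2.93).

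**Figure D2:**
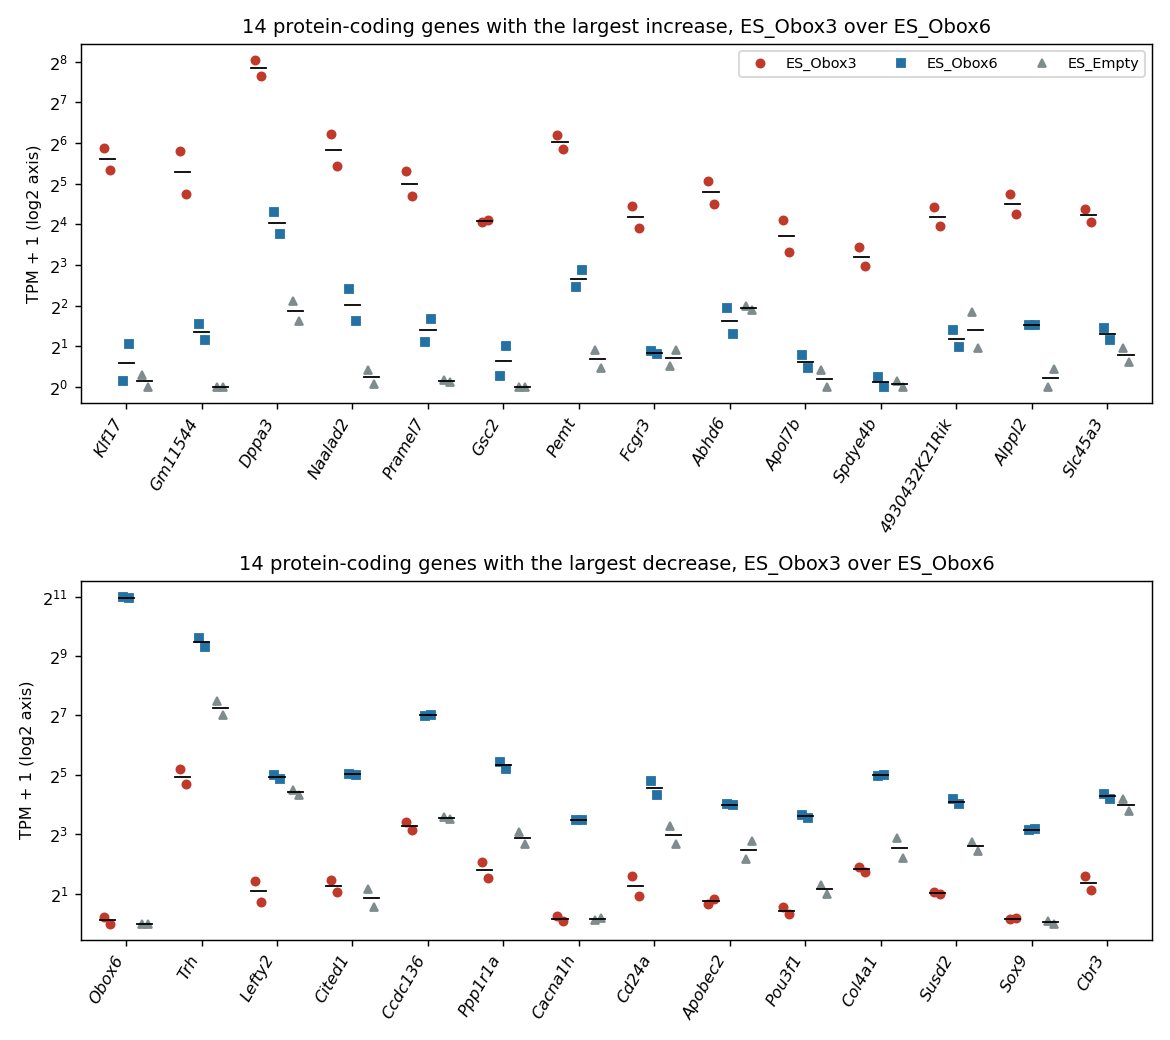
TPM + 1 on a log2 axis in every ES_Obox3 (red circles), ES_Obox6 (blue squares) and ES_Empty (grey triangles) library for the 14 largest protein-coding increases (top) and decreases (bottom, the supplied Obox6 included), with bars at the mean of log2(TPM + 1). The genes were picked for their differences between the ES_Obox3 and ES_Obox6 libraries, so the gap between those libraries follows from the choice. In the top panel ES_Empty lies near or below ES_Obox6.

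Genes lower in ES_Obox3 than in ES_Obox6 are described by where ES_Empty lay. By construction it must lie below ES_Obox6, above ES_Obox3 or both, so these patterns are not separate classes. The largest protein-coding decrease was that of the supplied Obox6 itself. Trh, which encodes thyrotropin-releasing hormone, had ES_Empty between the supplied groups. It had 35.4 and 25.1 TPM in ES_Obox3, 779.7 and 637.6 TPM in ES_Obox6 and 180.3 and 127.2 TPM in ES_Empty. No library of one group reached the range of another, and the log2 difference was -4.52 ± 0.25 (adjusted p = 0.00011). Set against ES_Empty, Trh differed by -2.31 in ES_Obox3 and by 2.21 in ES_Obox6, both called.

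Cited1, a transcriptional coactivator gene, had 1.74 and 1.08 TPM in ES_Obox3, 31.4 and 31.2 TPM in ES_Obox6 and 1.23 and 0.468 TPM in ES_Empty. ES_Obox3 was not called against ES_Empty (0.40), whereas ES_Obox6 was (4.16), and the difference between the supplied groups was -3.76 ± 0.27 (adjusted p = 0.000261). The same pattern was seen for Sox9, a transcription factor gene of many organ primordia, with 0.113 and 0.131 TPM in ES_Obox3, 7.83 and 8.02 TPM in ES_Obox6 and 0.065 and 0 TPM in ES_Empty. It was also seen for Cacna1h, a T-type calcium channel gene, at 0.192 and 0.0556 TPM in ES_Obox3, 10.1 and 10.1 TPM in ES_Obox6 and 0.0825 and 0.126 TPM in ES_Empty. Ccdc136 (9.56 and 7.76 TPM in ES_Obox3, 125.1 and 129.0 TPM in ES_Obox6, 11.1 and 10.5 TPM in ES_Empty) differed by -3.74 ± 0.18 (adjusted p = 3.96e-05). Lefty2, a secreted Nodal inhibitor, showed the other pattern, with 1.70 and 0.649 TPM in ES_Obox3, 30.9 and 28.2 TPM in ES_Obox6 and 21.6 and 19.2 TPM in ES_Empty. ES_Obox6 and ES_Empty were close, and ES_Obox3 was far below both (log2 difference from ES_Obox6 -3.85 ± 0.24, adjusted p = 0.000181). Cbr3, a carbonyl reductase gene, had 2.05 and 1.19 TPM in ES_Obox3, 19.7 and 17.1 TPM in ES_Obox6 and 17.1 and 12.8 TPM in ES_Empty. Further large decreases were Ppp1r1a, a protein phosphatase inhibitor gene (-3.53), the surface glycoprotein gene Cd24a (-3.30), Apobec2 (-3.25), the POU factor gene Pou3f1 (-3.18), the basement membrane collagen gene Col4a1 (-3.17) and Susd2 (-3.07).

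Genes transcribed at the 2-cell stage split within the list. Of 43 tested, 10 were called higher in ES_Obox3 and 0 lower as deposited, and 12 and 0 after scaling, with 7 calls that held with every library left out. Their median log2 difference was 0.10, against -0.32 over all genes, and 0.27 after scaling. Calls over all genes were 2.52% higher and 6.61% lower as deposited, and 4.84% and 2.66% after scaling. Chit1, a chitinase gene, had 34.2 and 24.3 TPM in ES_Obox3 and 3.13 and 3.22 TPM in ES_Obox6, and was listed at 0 in ES_Empty. It was higher in ES_Obox3 by 2.84 ± 0.20 (adjusted p = 0.000265). Usp17lb, of a family of deubiquitinase genes, had 6.15 and 6.08 TPM in ES_Obox3 and 0.634 and 0.599 TPM in ES_Obox6 (2.14 ± 0.18, adjusted p = 0.000471). Sp110 was higher by 2.18, Usp17ld by 1.78, Ubtfl1 by 1.73 and Spz1 by 1.58. By contrast Trim43a, a 2-cell-stage gene, had 103.9 and 70.0 TPM in ES_Obox3, 74.7 and 63.6 TPM in ES_Obox6 and 0.135 and 0 TPM in ES_Empty. Both supplied groups were far above ES_Empty and overlapped each other. The log2 difference between them was 0.30 (95% interval -0.20 to 0.81, adjusted p = 0.379), and 0.77 after scaling (adjusted p = 0.00183), under the minimum fold in both. Zscan4d, Tcstv3 and Zfp352, widely used markers of 2-cell-like cells, stayed low. Zscan4d had 0.309 and 0.0299 TPM in ES_Obox3 and 0.526 and 0.257 TPM in ES_Obox6, Tcstv3 had 1.35 and 0.378 TPM in ES_Obox3 and 0.317 and 1.15 TPM in ES_Obox6, and Zfp352 had 0.823 and 0.417 TPM in ES_Obox3 and 0.543 and 0.616 TPM in ES_Obox6. The ranges of the groups overlapped for each, and none of the 3 was called under either scaling. Of 9 PRAME-like genes tested, 3 were called higher and 0 lower as deposited, and 5 and 0 after scaling. Among them Pramel5 had 5.603 and 4.07 TPM in ES_Obox3 and 0.645 and 0.203 TPM in ES_Obox6, higher by 2.04 ± 0.24 (adjusted p = 0.00206). Members of the Usp17l and PRAME-like families share near-identical stretches, so their single levels are uncertain.

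Core pluripotency factors were expressed in both groups, as the labelled cell type has them. Of 16 tested, 2 were called higher and 1 lower as deposited and 4 and 0 after scaling. The shares over all genes were 2.52% and 6.61% as deposited, and 4.84% and 2.66% after scaling. Sox2 had 14.5 and 9.83 TPM in ES_Obox3, 14.9 and 9.42 TPM in ES_Obox6 and 78.5 and 66.3 TPM in ES_Empty. The supplied groups overlapped almost completely and were both below ES_Empty. Their log2 difference was 0.01 (95% interval -0.59 to 0.60), and 0.44 after scaling (adjusted p = 0.0892), while each was called lower than ES_Empty, with differences of -2.50 in ES_Obox3 and -2.51 in ES_Obox6. Nanog had 105.2 and 72.0 TPM in ES_Obox3, 95.6 and 76.3 TPM in ES_Obox6 and 188.3 and 153.2 TPM in ES_Empty. Its ES_Obox3 and ES_Obox6 ranges overlapped, with a difference of 0.03 (95% interval -0.51 to 0.56) and 0.49 after scaling (adjusted p = 0.0139, under the minimum fold). Pou5f1 had 198.0 and 150.5 TPM in ES_Obox3, 238.9 and 210.6 TPM in ES_Obox6 and 382.9 and 332.5 TPM in ES_Empty, a difference of -0.38 (95% interval -0.81 to 0.06, adjusted p = 0.216) as deposited and 0.09 after scaling (adjusted p = 0.615). Dppa2, a chromatin factor gene of pluripotent cells and early embryos, did differ. It had 160.2 and 109.5 TPM in ES_Obox3, 41.6 and 29.4 TPM in ES_Obox6 and 41.6 and 32.7 TPM in ES_Empty. ES_Obox6 overlapped ES_Empty, and ES_Obox3 was higher by 1.89 ± 0.25 (adjusted p = 0.00322).

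Naive-state genes moved both ways. Of 30 tested, 2 were called higher and 6 lower as deposited, and 4 and 2 after scaling, with medians of -0.57 and -0.20. All genes gave 2.52% higher and 6.61% lower as deposited, and 4.84% and 2.66% after scaling, with medians of -0.32 and 0. Gbx2, a homeobox gene of the naive network, had 0.592 and 0.405 TPM in ES_Obox3, 7.97 and 8.26 TPM in ES_Obox6 and 17.1 and 12.5 TPM in ES_Empty. It was nearly lost in ES_Obox3, with a difference from ES_Obox6 of -2.61 ± 0.20 (adjusted p = 0.000325). Tbx3 had 18.7 and 12.4 TPM in ES_Obox3, 49.9 and 45.1 TPM in ES_Obox6 and 45.8 and 42.4 TPM in ES_Empty (-1.58 ± 0.21, adjusted p = 0.00325). Fbxo15 was higher, with 242.0 and 179.1 TPM in ES_Obox3, 93.4 and 79.9 TPM in ES_Obox6 and 30.5 and 26.0 TPM in ES_Empty. Klf4 had 26.0 and 19.04 TPM in ES_Obox3, 54.7 and 46.8 TPM in ES_Obox6 and 86.7 and 78.4 TPM in ES_Empty. Its difference of -1.15 (adjusted p = 0.00851) was -0.69 after scaling, under the minimum fold, and it lost its call without the unnumbered ES_Obox3 library (adjusted p = 0.0232, with the fold under the minimum) or without ES_Obox6 replicate 1 (adjusted p = 0.0679). Of 15 Klf genes tested, 1 was called higher and 6 lower, and 2 and 3 after scaling. Klf17 was the increase called both ways, and Klf6, Klf13 and Klf15 were the decreases called both ways (-1.52, -1.41 and -2.09). Of 12 formative and primed genes tested, 0 were called higher and 6 lower, and 0 and 3 after scaling. The 3 were Pou3f1, Dnmt3a and Foxd3. Foxd3 had 1.36 and 0.554 TPM in ES_Obox3, 8.25 and 9.60 TPM in ES_Obox6 and 10.2 and 9.84 TPM in ES_Empty (-2.37 ± 0.23, adjusted p = 0.000842).

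**Figure D3:**
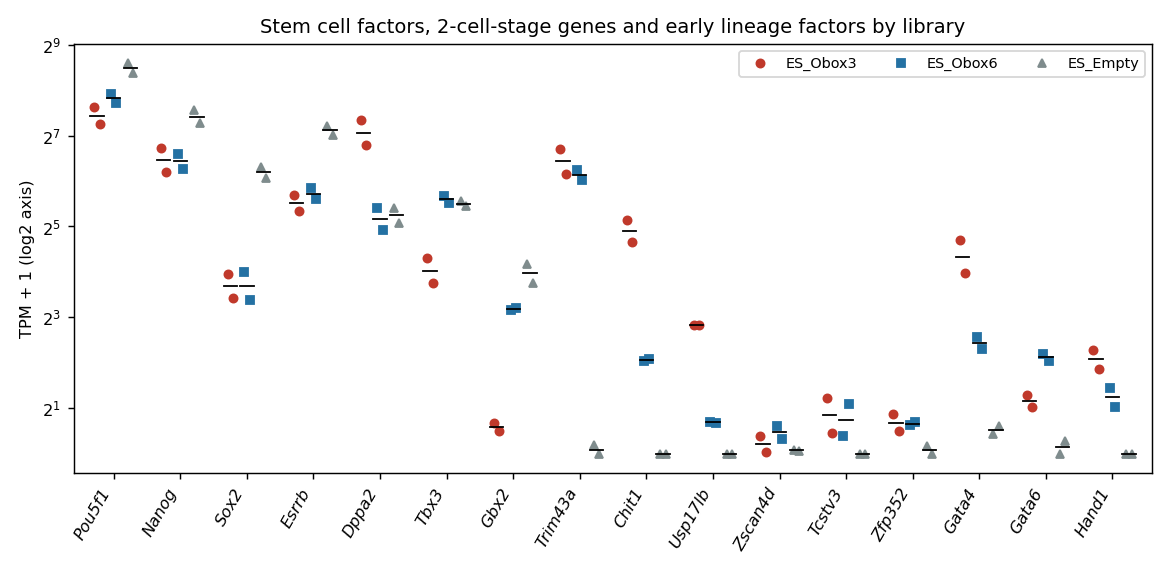
TPM + 1 on a log2 axis in every ES_Obox3 (red circles), ES_Obox6 (blue squares) and ES_Empty (grey triangles) library for stem cell, 2-cell-stage and early lineage genes, with bars at the mean of log2(TPM + 1). ES_Obox3 and ES_Obox6 share the low Sox2 and the high Trim43a level, whereas Dppa2, Chit1 and Gata4 are higher in ES_Obox3 and Gbx2 and Tbx3 lower.

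Markers of other early lineages differed gene by gene. Of 16 primitive endoderm genes tested, 1 was called higher and 6 lower, and 1 and 4 after scaling. Among all genes, 2.52% were called higher and 6.61% lower, and 4.84% and 2.66% after scaling. Gata4, an endoderm transcription factor gene, had 25.02 and 14.7 TPM in ES_Obox3, 4.94 and 3.95 TPM in ES_Obox6 and 0.344 and 0.525 TPM in ES_Empty. It was the increase of the list (1.90 ± 0.27, adjusted p = 0.00394). Its relative Gata6 had 1.46 and 1.03 TPM in ES_Obox3, 3.57 and 3.14 TPM in ES_Obox6 and 0 and 0.221 TPM in ES_Empty, a difference of -0.96 (95% interval -1.48 to -0.44) as deposited and -0.64 after scaling, under the minimum fold in both. The basement membrane genes Col4a1 and Col4a2 and the endoderm genes Sox7 and Cubn were lower in ES_Obox3. Sox7 had 0.142 and 0.0822 TPM in ES_Obox3, 5.32 and 5.45 TPM in ES_Obox6 and 0.163 and 0.56 TPM in ES_Empty (-2.52 ± 0.26, adjusted p = 0.0011). The summed level of the list was 788.7 and 611.1 TPM in ES_Obox3, 820.6 and 788.4 TPM in ES_Obox6 and 711.5 and 555.8 TPM in ES_Empty. Of 14 trophoblast genes tested, 1 was called higher and 5 lower, and 2 and 2 after scaling. Tfap2c, a trophoblast and germline factor gene, was higher, with 5.79 and 4.06 TPM in ES_Obox3, 0.874 and 1.33 TPM in ES_Obox6 and 6.57 and 5.97 TPM in ES_Empty (1.49 ± 0.21, adjusted p = 0.00434). The keratin gene Krt8 was lower, with 3.11 and 3.08 TPM in ES_Obox3, 24.6 and 18.9 TPM in ES_Obox6 and 6.79 and 5.605 TPM in ES_Empty (-2.46 ± 0.23, adjusted p = 0.000709). Hand1, a trophoblast and mesoderm gene, had 3.87 and 2.65 TPM in ES_Obox3 and 1.73 and 1.05 TPM in ES_Obox6 and was listed at 0 in ES_Empty. Its difference of 0.83 was not called as deposited (adjusted p = 0.0581) and was 1.12, called, after scaling (adjusted p = 0.00537). Whether such marker levels come from a few cells or from many was not tested.

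Of 10 mesoderm and germ layer genes tested, 0 were called higher and 5 lower, and 1 and 4 after scaling. The 4 called lower both ways were Gsc, Cdx1, Lefty1 and Lefty2. Gsc, the goosecoid homeobox gene of the organizer, had 2.77 and 3.32 TPM in ES_Obox3, 19.2 and 19.7 TPM in ES_Obox6 and 0.424 and 0.162 TPM in ES_Empty. Both supplied groups were above ES_Empty, and ES_Obox3 was below ES_Obox6 (-2.34 ± 0.19, adjusted p = 0.000439). Gsc and its relative Gsc2 thus differed between the groups in opposite directions. Summed levels of the list were 41.0 and 33.7 TPM in ES_Obox3, 116.1 and 125.4 TPM in ES_Obox6 and 79.2 and 72.6 TPM in ES_Empty. Of 9 neural genes tested, 0 were called higher and 2 lower, and 0 and 1 after scaling. Of 9 fibroblast genes, 0 were called higher and 2 lower, and 0 and 1 after scaling. Of 5 blood, endothelial and other lineage genes, 0 were called higher and 0 lower, and 1 and 0 after scaling. These counts stand beside 2.52% higher and 6.61% lower over all genes, and 4.84% and 2.66% after scaling.

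Genes of the Nodal, Activin and BMP pathways that were called under both scalings were all lower in ES_Obox3. All genes gave 2.52% higher and 6.61% lower, and 4.84% and 2.66% after scaling, with medians of -0.32 and 0. Of 23 genes of these pathways tested, 0 were called higher and 10 lower, and 1 and 6 after scaling, with medians of -0.96 and -0.53. The 6 called both ways were the inhibitors Lefty1, Lefty2 and Smad7, the signal transducer Smad2, the corepressor gene Skil and the BMP target Id4. Lefty1 had 0.4 and 0.347 TPM in ES_Obox3, 6.96 and 7.17 TPM in ES_Obox6 and 5.65 and 7.29 TPM in ES_Empty (-2.56 ± 0.32, adjusted p = 0.00239). Smad7 had 8.86 and 7.05 TPM in ES_Obox3, 32.8 and 31.0 TPM in ES_Obox6 and 46.3 and 47.0 TPM in ES_Empty (-1.88 ± 0.18, adjusted p = 0.000804). In both, ES_Obox6 was at or nearer the ES_Empty level. The ligand gene Nodal had 19.3 and 15.5 TPM in ES_Obox3, 41.5 and 52.96 TPM in ES_Obox6 and 32.3 and 27.0 TPM in ES_Empty, a difference of -1.39 (adjusted p = 0.0112) that was -0.93 after scaling (adjusted p = 0.0689) and lost its call. Of 14 Wnt pathway genes tested, 0 were called higher and 3 lower, and 1 and 3 after scaling. The receptor gene Fzd7 had 2.22 and 1.47 TPM in ES_Obox3, 12.3 and 13.7 TPM in ES_Obox6 and 15.6 and 15.1 TPM in ES_Empty (-2.31 ± 0.19, adjusted p = 0.000433). The targets Ccnd1 (-2.08) and Cdx1 (-1.70) were lower as well. Of 6 Hes and Id repressor genes tested, 0 were called higher and 3 lower under each scaling, among them Id4 (-2.39) and Hes6 (-1.61). The FGF pathway list had 0 calls in either direction after scaling among 19 genes tested and 0 higher and 2 lower as deposited.

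The DNA methylation machinery held opposite changes in partner genes. Dnmt3a, a de novo methyltransferase gene, had 19.2 and 14.02 TPM in ES_Obox3, 61.5 and 56.0 TPM in ES_Obox6 and 6.42 and 4.17 TPM in ES_Empty. It was above ES_Empty in both supplied groups and lower in ES_Obox3 than in ES_Obox6 (-1.78 ± 0.23, adjusted p = 0.00292). Its cofactor gene Dnmt3l had 39.3 and 22.7 TPM in ES_Obox3, 8.86 and 8.68 TPM in ES_Obox6 and 61.4 and 55.8 TPM in ES_Empty. It was higher in ES_Obox3 than in ES_Obox6 (1.66 ± 0.25, adjusted p = 0.00477), and as deposited both supplied groups lay below ES_Empty. Dnmt3b had 63.6 and 47.5 TPM in ES_Obox3 and 62.4 and 58.2 TPM in ES_Obox6 and was not called (-0.13 as deposited, 0.33 after scaling). Over the list of 19 tested, 2 were called higher and 3 lower, and 3 and 1 after scaling. The shares over all genes were 2.52% and 6.61%, and 4.84% and 2.66% after scaling.

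Imprinted genes were lower in ES_Obox3 wherever they were called. Of 21 genes imprinted by DNA methylation, 0 were called higher and 8 lower under both scalings, and 5 calls held with every library left out. The medians were -0.90 and -0.52. Peg3, expressed from the paternal allele, had 8.88 and 5.45 TPM in ES_Obox3, 39.7 and 36.6 TPM in ES_Obox6 and 20.4 and 15.2 TPM in ES_Empty. ES_Obox6 was above ES_Empty and ES_Obox3 below it, and the difference between the supplied groups was -2.29 ± 0.23 (adjusted p = 0.00101). The other 4 lie together in the Dlk1-Dio3 domain on chromosome 12. There Meg3, expressed from the maternal allele, had 0.859 and 0.6 TPM in ES_Obox3, 4.94 and 5.83 TPM in ES_Obox6 and 7.21 and 7.93 TPM in ES_Empty (-1.89 ± 0.21, adjusted p = 0.00144). Rian (-1.55), Mirg (-1.54) and the paternally expressed Rtl1 (-1.99) were lower too. Over the span chr12:109540996-109749458, 14 of 74 genes tested were called lower under both scalings, 9 of them with every library left out. A further 1, the microRNA gene Mir381, was untested in 2 of the fits and lost no call. This span and the chromosome 2 span below run from the first to the last called gene, which raises their shares. Over all genes tested, 6.61% were called lower as deposited, 2.66% after scaling and 2.63% under both scalings. Mir434 was listed at 0 in both ES_Obox3 libraries, against 6.58 and 5.79 TPM in ES_Obox6 and 7.14 and 16.0 TPM in ES_Empty. Mir410 had 1.45 and 2.51 TPM in ES_Obox3, 10.7 and 8.65 TPM in ES_Obox6 and 13.8 and 16.5 TPM in ES_Empty. MicroRNA genes are short, so such values rest on few reads, and reads of overlapping host transcripts can count for them. Of 13 genes imprinted by H3K27me3, 0 were called higher and 6 lower, and 0 and 2 after scaling. A chromosome 2 group of microRNA genes at the imprinted Sfmbt2 locus, chr2:10466944-10513531, had 8 of 34 genes called lower, with Mir669b alone called with every library left out and Mir669f untested in 2 of the fits. Sfmbt2 itself had 1.18 and 1.06 TPM in ES_Obox3 and 4.14 and 3.81 TPM in ES_Obox6, and its difference of -1.23 was -0.89 after scaling and was not called without ES_Obox6 replicate 1 (adjusted p = 0.0597).

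Among glycolysis genes, transcripts of a glucose transporter gene and of phosphofructokinase genes were lower in ES_Obox3. Of 23 glycolysis genes tested, 0 were called higher and 5 lower, and 0 and 3 after scaling. For this and the following lists, the shares over all genes were 2.52% higher and 6.61% lower, and 4.84% and 2.66% after scaling. The glucose transporter gene Slc2a1 had 20.7 and 13.9 TPM in ES_Obox3, 78.6 and 76.2 TPM in ES_Obox6 and 46.7 and 41.4 TPM in ES_Empty (-2.13 ± 0.21, adjusted p = 0.000842). Phosphofructokinase genes Pfkp and Pfkm were lower, with differences of -2.32 and -1.51. Pfkm had 14.5 and 9.46 TPM in ES_Obox3, 34.8 and 35.6 TPM in ES_Obox6 and 11.2 and 9.24 TPM in ES_Empty. As deposited, ES_Obox3 thus lay near ES_Empty for Pfkm, but scaling would set it higher beside ES_Empty. Of 37 nuclear oxidative phosphorylation genes tested, 0 were called in either direction under both scalings, and the same was true of 22 heat shock and chaperone genes. Cell cycle genes included the higher Cdk2 (37.7 and 26.0 TPM in ES_Obox3, 11.9 and 11.9 TPM in ES_Obox6 and 22.05 and 18.3 TPM in ES_Empty) and the lower Cdk6 (-1.66). Of 37 DNA replication genes, 1 was called higher and 0 lower, and 2 and 0 after scaling. Cdc6, which loads the replicative helicase, was the call as deposited, with 37.3 and 22.9 TPM in ES_Obox3, 9.74 and 7.68 TPM in ES_Obox6 and 13.8 and 10.9 TPM in ES_Empty (1.65 ± 0.25, adjusted p = 0.00581). Of 53 ribosome biogenesis genes, 3 were called higher and 0 lower, and 8 and 0 after scaling, but 0 of the calls held with every library left out. The oxidative stress genes Nqo1 (-1.67) and Hmox1 (-1.45) were lower. In the MHC class I list 3 of 13 genes were called higher and 1 lower, and 3 and 0 after scaling. H2-Q4 had 15.5 and 9.72 TPM in ES_Obox3, 1.00 and 1.12 TPM in ES_Obox6 and 1.03 and 0.988 TPM in ES_Empty (2.69 ± 0.23, adjusted p = 0.000498). Its neighbours H2-Q6 and H2-Q7 are near-identical copies untested in 2 of the fits, and their calls were lost without ES_Obox6 replicate 2 (adjusted p = 0.0616 and 0.0689) and, for H2-Q7, without ES_Obox6 replicate 1 (0.0952). Of 15 oocyte genes tested, 3 were called higher and 1 lower, and 4 and 0 after scaling, with 0 calls that held with every library left out. Of 23 germ cell genes tested, 4 were called higher and 2 lower, and 5 and 0 after scaling, of which Dppa3 and Tfap2c held.

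**Figure D4:**
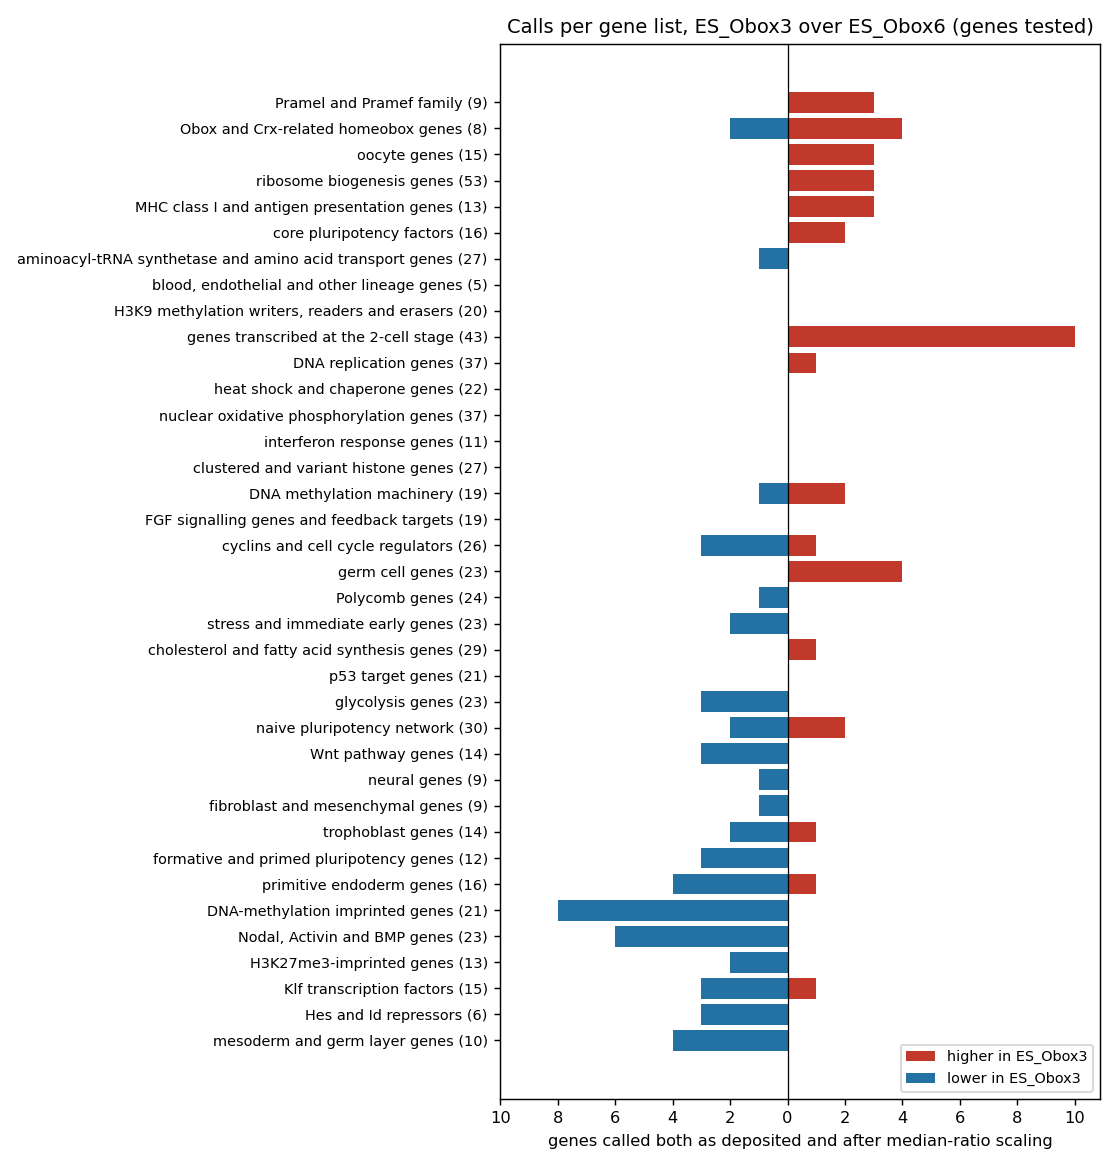
Number of genes called higher (red, right) or lower (blue, left) in ES_Obox3 than in ES_Obox6 both as deposited and after median-ratio scaling, for each gene list with the number of its genes tested in brackets, ordered by median log2 difference after scaling. The 2-cell-stage list holds 10 higher and 0 lower genes, and the list of genes imprinted by DNA methylation 0 higher and 8 lower. Among all genes tested, 2.51% were called higher and 2.63% lower in this way.

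Several differences lay next to each other in the genome, in groups that were picked out after their values were seen. Each span runs from the first to the last called gene of a group, which raises its share of calls. Over all genes tested, 2.51% were called higher and 2.63% lower under both scalings. On chromosome 9, all 4 genes tested in chr9:18321951-18429027 were higher in ES_Obox3, and all 4 calls held with every library left out. Beside Naalad2 these were the pseudogenes Gm19174 (25.5 and 16.1 TPM in ES_Obox3, 0.905 and 0.855 TPM in ES_Obox6) and Gm5612 (66.8 and 34.0 TPM in ES_Obox3, 0 and 1.25 TPM in ES_Obox6) and the 2-cell-stage gene Ubtfl1 (3.63 and 3.53 TPM in ES_Obox3, 0.391 and 0.369 TPM in ES_Obox6). On chromosome 11, 8 of 10 genes tested in chr11:60560870-60693113 were higher, all of them pseudogenes with Gm names, and 6 calls held with every library left out. Gm12617 had 495.8 and 371.0 TPM in ES_Obox3 and 52.6 and 52.7 TPM in ES_Obox6, and was listed at 0 in ES_Empty. Pseudogenes of 1 group can resemble each other, so reads may be split among them. After the copy Obox3-ps5 (8.43), the largest increase outside protein-coding genes was that of Gm12622, which was placed there by its Gm name. It had 132.6 and 121.2 TPM in ES_Obox3 and 0.647 and 0.611 TPM in ES_Obox6, and was also listed at 0 in ES_Empty (6.29 ± 0.20, adjusted p = 2.59e-06). Gm25110 had 36.8 and 28.6 TPM in ES_Obox3, and in ES_Obox6 and ES_Empty it was listed at 0. In the other direction, Gm26220 had 0.868 and 2.03 TPM in ES_Obox3, 61.6 and 64.3 TPM in ES_Obox6 and 5.52 and 2.30 TPM in ES_Empty.

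The levels of these genes were then read in the other libraries of the table. Each library was placed gene by gene on a scale with 0 at the ES_Obox6 mean and 1 at the ES_Obox3 mean (log2 after scaling), for 503 higher and 533 lower genes, leaving out Obox3, Obox6 and their copies. The ES_Obox3 and ES_Obox6 libraries lie near 1 and 0 because they chose the genes. For the higher genes, both libraries with an Obox5 plasmid had median positions of 0.813 and 0.805, nearer ES_Obox3. The Dux libraries were at 0.102 and 0.052, the Obox8 library at 0 and the ES_Empty libraries at -0.094 and -0.096. These medians hide a split, since 28.4 and 28.0% of the higher genes were nearer ES_Obox3 in the Dux libraries. That share was 14.3% in the Obox8 library and 3.58 and 4.57% in the ES_Empty libraries. The other single libraries, with Obox1, Obox2, Obox7, Obox4ps27, Obox4ps35 or a Crxos construct, lay between -0.115 and -0.081. Genes lower in ES_Obox3 gave a different picture, with 0.773 and 0.801 for Obox5, 0.544 and 0.485 for ES_Empty and 0.368 to 0.611 for the remaining libraries. Of the 503 higher genes, 328 had an ES_Empty mean beyond the ES_Obox6 mean, 158 between the means but nearer ES_Obox6, 13 nearer ES_Obox3 and 4 beyond ES_Obox3. Of the 533 lower genes these numbers were 119, 137, 187 and 90. Genes higher in ES_Obox3 thus mostly had ES_Empty at the ES_Obox6 end. For lower genes the ES_Empty mean was spread over the scale, most often between the means of the supplied groups. Single libraries have no replicate check. ES_Obox3, ES_Obox5 and ES_Dux each hold an unnumbered library, whereas ES_Obox6 and ES_Empty do not, and its part in these positions was not tested.

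**Figure D5:**
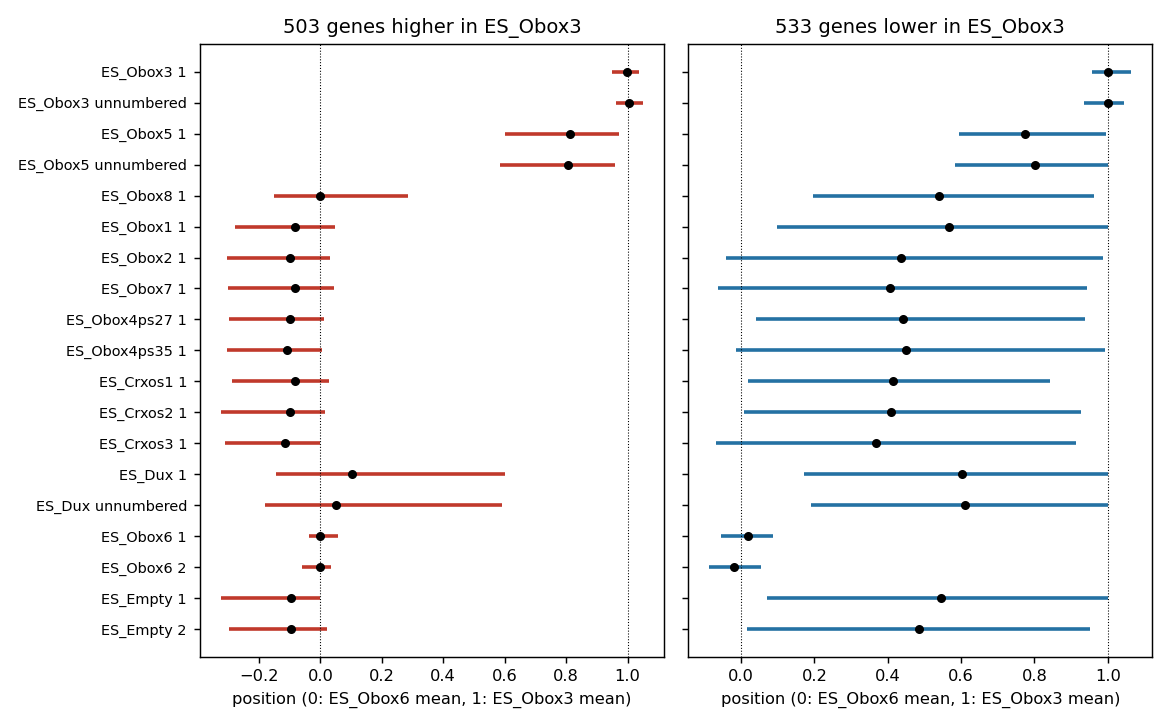
Median (black point) and interquartile range (line) of the position of each mESC library over the 503 genes higher (left) and 533 genes lower (right) in ES_Obox3, on a scale with 0 at the ES_Obox6 mean and 1 at the ES_Obox3 mean. For the higher genes the Obox5 medians lie at 0.805 and 0.813, and the medians of the other libraries outside the comparison between -0.115 and 0.102. The upper quartiles of the Dux libraries reach 0.601 and 0.59.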

How the data were processed

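The deposited values are TPM per gene made by the authors, per the file headers. Per the submitters' processing notes, the series used featureCounts 1.6.5, HISAT2 and Trim Galore among other tools, on mm10. Strand setting and multi-mapped reads are not described, so near-identical copies (Obox, PRAME-like, Usp17l, H2-Q, Zscan4, Tcstv, Trim43) and overlapping genes are uncertain. TPM keep no depth. The worth of 1 read on a 1-kb gene was estimated from the most frequent value among short RNAs. It was 0.234 and 0.136 TPM in ES_Obox3 and 0.247 and 0.234 TPM in ES_Obox6. These estimates are uncertain. Whole multiples of them made up only 54.5 and 54.1% of the values in ES_Obox3 and 60.1 and 53.9% in ES_Obox6.

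The test was limma (version 3.58.1, R 4.3.3) applied to log2(TPM + 1), using robust moderation with a trend of variance on level, and p-values were adjusted by Benjamini-Hochberg over 20355 genes. The 10 libraries of the 5 groups with 2 libraries (ES_Obox3, ES_Obox6, ES_Obox5, ES_Dux, ES_Empty) shared 1 spread (5 residual and 3.71 prior degrees of freedom). The labels do not tie libraries of a group to separate cultures, so the spread behind each p may be technical. Only the limma fit was tested on simulated data. The unnumbered library of ES_Obox3 carries a column number, 3, that no ES_Obox6 or ES_Empty library has. ES_Obox5 and ES_Dux each have a library with that column number too.

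Named genes were Obox3, Obox6 and Obox3-ps5; the 14 protein-coding genes and 3 other genes with the largest difference in each direction, called under both scalings and with a mean of at least 5 TPM in the higher group; up to 4 called genes of each list by p; and fixed stem cell and 2-cell-stage genes. Others (Fbxo15, Nodal, Dnmt3b, Usp17ld, Ubtfl1, Spz1, Cubn, Smad2, Skil, Mirg and the neighbouring genes) were named after their values were seen. The members and lists were chosen with earlier results of these data known. Coordinates and promoters are RefSeq's on GRCm38.p6. The embryo table was not used here.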

Additional observations from a re-analysis of the deposited data

How the results depend on the processing

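No paired analysis was possible because ES_Obox3 and ES_Obox6 share only replicate number 1. As deposited, 513 genes were called higher, 1346 lower, with a median difference of -0.322. Median-ratio scaling gave 985, 542 and 0. A pseudocount of 0.1 gave a median of -0.425, and one of 5 gave 185, 353 and -0.154. No filter on low values gave 316, 748 and -0.03, a filter of 5 TPM gave 893 lower, and no minimum fold gave 2200 lower. Leaving out each library in turn gave 256 to 568 higher, 440 to 2257 lower and medians of -0.531 to -0.113. The counts moved by over 1.5 times without ES_Obox3 replicate 1 (310 higher, 2257 lower), the unnumbered ES_Obox3 library (577 lower), ES_Obox6 replicate 1 (266 and 440) or ES_Obox6 replicate 2 (256 higher). Leaving out those 4 after scaling, chosen after seeing the data as was the count of calls kept throughout, gave 827 higher and 395 lower without ES_Obox3 replicate 1, 785 and 401 without the unnumbered ES_Obox3 library, 819 and 394 without ES_Obox6 replicate 1 and 806 and 440 without ES_Obox6 replicate 2, with medians of 0. The cause was not tested. Of 3068 values of 142 named genes under 22 alternatives, 2692 stayed on their side of the thresholds, 369 lost a call, 7 gained one and 0 called values changed sign, while 46 uncalled values did. Having 2 libraries per group and few reads near 1 TPM limit small differences.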
